A study of Mus musculus with 111 samples.

Results

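The comparison described here is the effect of the R6/2 transgene on gene expression in striatal astrocytes at 12 weeks of age. It rests on 11 of the 111 arrays of the series: the 6 samples of sorted astrocytes from R6/2 mice (samples 11, 13, 15, 17, 19 and 21) and the 5 from wild-type (WT) littermates (samples 12, 14, 16, 18 and 20). The arrays named 18194 genes, each read by the probe set with the highest mean over all arrays, and 12209 of them were bright enough in astrocytes to be tested. The study used 2 mouse models of Huntington's disease, R6/2 and zQ175, at 2 ages each, and sorted astrocytes, microglia and a negative fraction from their striatum.

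R6/2 mice carry exon 1 of human huntingtin with an expanded CAG repeat as a transgene in addition to their own Htt genes, and zQ175 mice carry an expanded repeat within Htt itself. In both models the mutant protein is present in all brain cells, so a change in astrocytes here can follow from mutant huntingtin in the astrocytes or in the cells around them, and the design cannot tell these apart. The subventricular zone was cut away, littermates of the same genotype gave 1 pool of striata, and myelin debris was removed on Percoll before sorting. A sample is therefore a pool, no label names single animals, and the p-values measure the spread between pools. The 12-week groups are set beside R6/2 (5 samples) and WT (5) astrocytes at 6 weeks, R6/2 (6) and WT (5) microglia at 12 weeks, and zQ175 (4) and WT (4) astrocytes at 12 months.

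Astrocytes clear glutamate and potassium from around synapses, store glycogen, couple into networks through gap junctions, and make most of the cholesterol that adult neurons use. Cholesterol is built from acetyl-CoA through mevalonate, isoprenoids, squalene and lanosterol, and the enzymes of this route are switched on together by the transcription factor SREBP2. Interferon-stimulated genes are antiviral effectors and sensors switched on after interferon signalling or sensing of nucleic acids, in glia as in most other cells.

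The sorted fraction carried the astrocyte markers at a high level. The mean log2 signal of 20 astrocyte markers was 12.49 ± 0.04 (SD, n = 5) in WT and 12.33 ± 0.11 (SD, n = 6) in R6/2 samples. The 14 microglia markers averaged 5.07 ± 0.38 in WT and 5.20 ± 0.43 in R6/2 astrocyte samples, against 12.86 in WT microglia. The GLT1 gate also held oligodendrocyte RNA: 13 oligodendrocyte markers averaged 12.40 ± 0.09 in WT and 12.03 ± 0.22 in R6/2 samples, which is above the 11.86 of the WT negative fraction. Of these 13 markers 7 fell and none rose in R6/2, where 14.2% of all genes tested fell. The 17 endothelial and mural markers varied most between R6/2 samples, from 7.78 to 10.60, against 9.04 to 10.21 in WT. The 11 markers of oligodendrocyte precursors averaged 8.24 ± 0.15 in WT and 8.63 ± 0.22 in R6/2, and 10 pan-neuronal markers 6.94 ± 0.11 and 6.98 ± 0.26. In such bulk samples fewer cells of a type and less RNA per cell cannot be told apart. The Y-linked genes averaged 2.91 and 2.80 in WT samples 12 and 20, against 8.29 to 8.66 in the other WT samples and 7.41 to 9.26 in R6/2, so WT pools 12 and 20 held little or no male tissue. Xist, an RNA of female cells, read 12.72 and 12.48 in these pools and 11.53 to 12.61 in the others. The other pools therefore held tissue of both sexes.

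**Figure D1:**
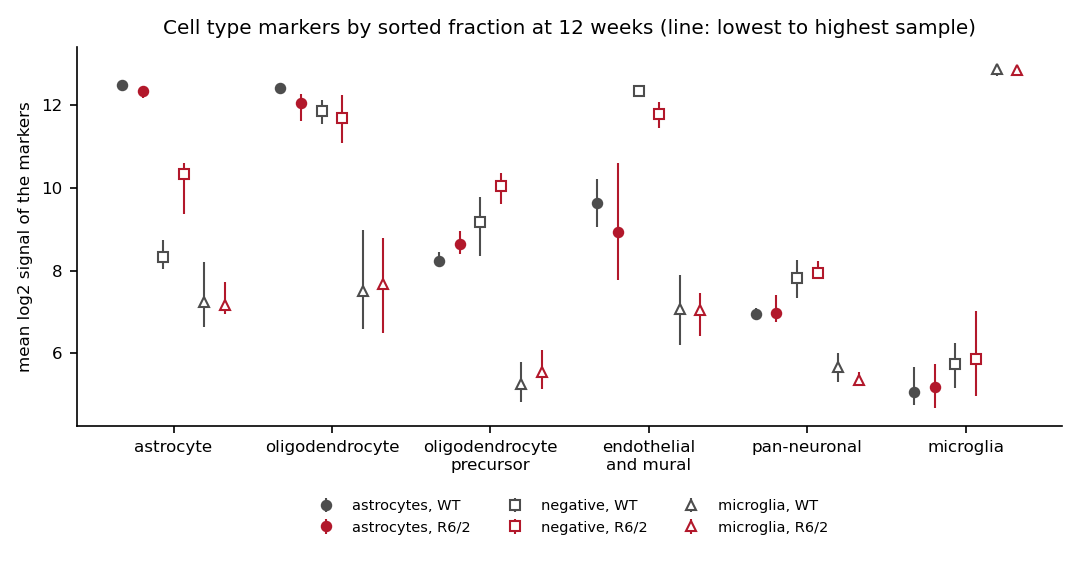
Mean log2 signal of the markers of 6 cell types (y axis) in the 3 sorted fractions of WT and R6/2 mice at 12 weeks, with the group mean as a point and a line from the lowest to the highest sample. In the astrocyte fraction astrocyte markers averaged 12.49 in WT and 12.33 in R6/2, and microglia markers 5.07 and 5.20.

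A large share of the genes tested differed between the R6/2 and WT samples of the astrocyte fraction at 12 weeks. Of the 12209 genes tested, 1775 were higher (14.5%) and 1732 lower (14.2%) in R6/2 at an adjusted p below 0.05 in limma (28.7% in either direction), and the words rose and fell are used below only of genes past that threshold. All 6 R6/2 values lay above all 5 WT values for 870 genes (7.13%) and below them for 838 (6.86%). These shares are the background for the counts by list below. Most changes were small: the median change was 1.34-fold among genes that rose and 1.43-fold among genes that fell, and the median log2 difference over all genes tested was 9.26e-05. More than 2-fold changes were found for 195 genes that rose and 206 that fell, and more than 4-fold changes for 47 and 8. Without the filter on dim genes the counts were 1742 higher (9.57% of 18194) and 1785 lower (9.81%). For 67.7% of the genes that fell the WT level was highest in the astrocyte fraction, against 39.6% of all genes tested and 24% of the genes that rose. The same 5 WT samples set this level and the difference, so level and difference are linked in part. The fraction also held oligodendrocyte RNA, so these shares support nothing about genes typical of astrocytes.

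**Figure D2:**
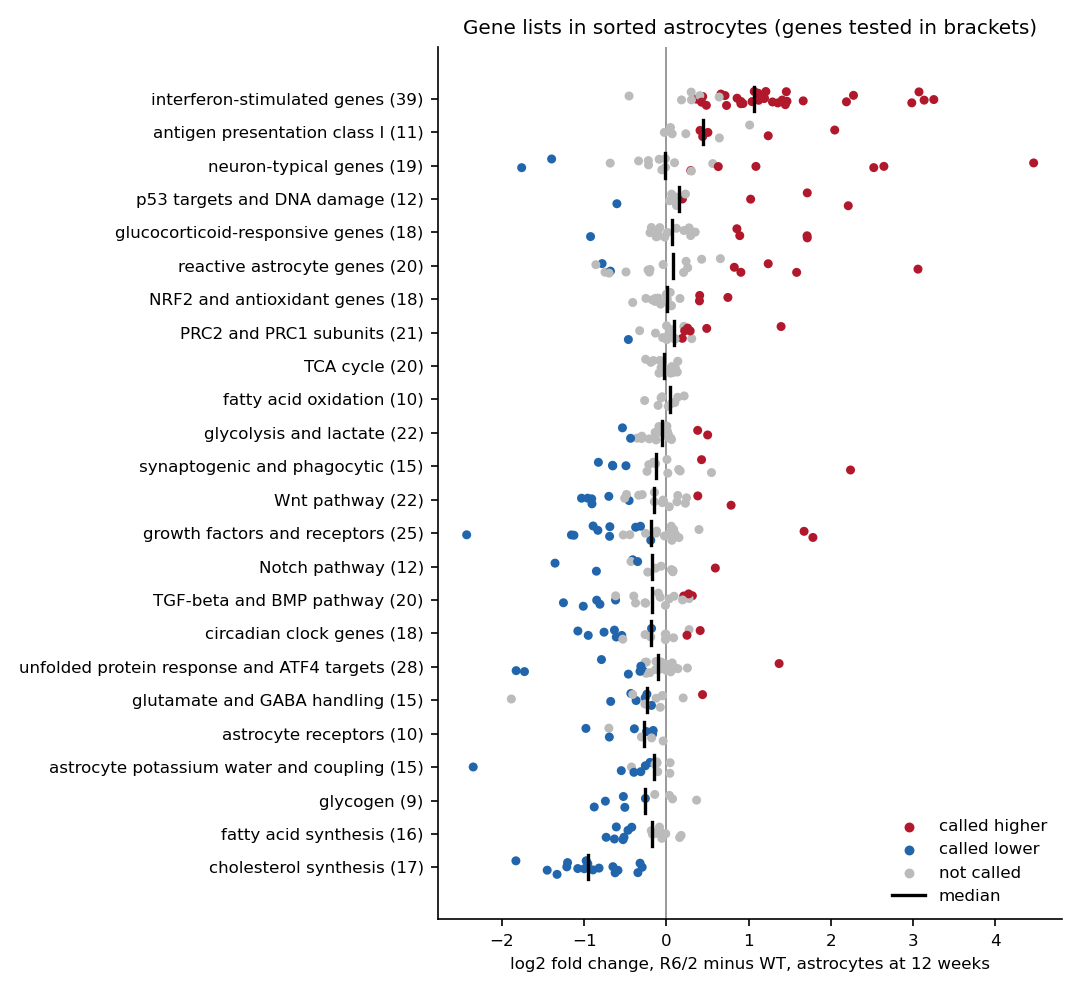
Log2 fold change, R6/2 minus WT, in astrocytes at 12 weeks (x axis) of the genes of 24 lists (y axis), each point a gene coloured by its call, with the list's median as a black bar. All 17 cholesterol synthesis genes were called lower and 33 of 39 interferon-stimulated genes higher.

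The genes with the largest rises came from several classes: RNAs typical of neurons or of development, interferon-stimulated genes and cell-surface proteins. Snhg11, a long non-coding RNA abundant in neurons, read 6.32, 7.13, 6.06, 6.17 and 6.71 in WT samples 12, 14, 16, 18 and 20 (the order used throughout) and 10.58, 10.88 and 11.38 (lowest, median and highest of 6) in R6/2. Every R6/2 sample lay far above every WT sample, and the difference was 4.47 ± 0.26 (SE, adjusted p = 7.01e-10), a 22.1-fold rise on its brightest probe set. Its 2 probe sets ranged from 2.06 to 4.47. Nrn1, which encodes the neurite-promoting surface protein neuritin, read 6.09, 8.65, 6.87, 6.63 and 6.16 in WT and 10.47, 10.62 and 11.05 in R6/2, without overlap, with WT sample 14 standing above the other WT samples. Its difference was 3.84 ± 0.40 (SE, adjusted p = 1.34e-06). Igf2bp3, a fetal RNA-binding protein, read 5.81, 5.39, 5.51, 5.28 and 4.87 in WT and 8.29, 8.40 and 8.78 in R6/2, with a difference of 3.07 ± 0.20 (SE, adjusted p = 2.48e-09). Only WT sample 12 lay above the level below which genes counted as dim (5.52), and the 6 R6/2 values lay close together. Its 6 probe sets ranged from 0.74 to 3.63. Cd109, a surface protein that binds TGF-beta and is on the list of reactive astrocyte genes, read 5.16, 5.01, 5.40, 5.08 and 3.99 in WT and 7.52, 7.98 and 8.40 in R6/2, a difference of 3.06 ± 0.20 (SE, adjusted p = 2.98e-09).

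Hpgd, the enzyme that inactivates prostaglandins, rose by 3.46 ± 0.23 from 4.75 to 5.68 in WT to 8.06 to 8.996 in R6/2. WT microglia express Hpgd at 12.11 ± 0.09 (SD, n = 5). The microglia markers given above averaged near 5 in both genotypes of the astrocyte fraction. Whether microglial RNA has a part in the Hpgd rise was not tested. Kazald1, a secreted protein that binds insulin-like growth factors, rose by 3.45 ± 0.14 with WT values of 6.65 to 7.08 and R6/2 values of 9.88 to 10.53. Galnt13, a glycosyltransferase that starts O-linked glycans, rose by 3.40 ± 0.30, and Fxyd6, a modulator of the sodium pump, by 3.15 ± 0.23. Myt1, a zinc-finger transcription factor of neural progenitors, rose by 3.02 ± 0.46, and its 6 R6/2 values were spread from 6.45 to 9.07. Its 2 probe sets ranged from -0.06 to 3.02. The WT negative fraction averaged 11.66 for Myt1 and 9.94 for Fxyd6, above WT astrocytes (5.19 and 5.72). For Nrn1, Hpgd, Igf2bp3 and Cd109 it averaged below WT astrocytes. The cell source of these rises was not tested. Usp18, Oasl2 and Ifit1, described below with the interferon-stimulated genes, complete the 12 largest rises. Among the 12, Galnt13 (WT mean 4.16), Cd109 (4.93), Myt1 (5.19), Hpgd (5.24) and Igf2bp3 (5.37) had a WT mean below the dim level of 5.52. Such genes entered the test through the R6/2 or 6-week samples, so their place among the largest rises supports no class of genes.

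The genes with the largest falls among those without overlap came from several classes, among them 2 receptors, a potassium channel and 2 enzymes. The lowest difference of all genes, -2.85, belonged to a gene named only by a sequence tag. Its R6/2 values, 4.27 to 5.49, all lay below the dim level of 5.52. Ntsr1, a receptor for neurotensin, read 7.38, 6.80, 8.12, 8.01 and 7.91 in WT and 4.13, 5.08 and 5.39 in R6/2, a difference of -2.77 ± 0.26 (SE, adjusted p = 3.91e-07). All R6/2 values lay below the level set as dim, so the Ntsr1 difference is taken against a dim signal. Bdnf, brain-derived neurotrophic factor, read 5.39, 5.45, 6.35, 5.92 and 6.34 in WT and 2.95, 3.36 and 4.37 in R6/2, a difference of -2.43 ± 0.21 (SE, adjusted p = 1.36e-07), with all R6/2 and 2 WT values below the dim level. Kcnk13, a background potassium channel, read 9.17, 9.11, 9.33, 9.40 and 9.63 in WT and 5.79, 7.12 and 7.65 in R6/2. The R6/2 values were more spread than the WT values but stayed below every WT value, and the difference was -2.35 ± 0.24 (SE, adjusted p = 7.7e-07). This was the brightest of its 2 probe sets, and the other gave only -0.27.

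Rarres1, a membrane protein induced by retinoid, changed by -2.06 ± 0.28 from 7.18 to 8.15 to 4.81 to 6.84. Aldh1a7, an aldehyde dehydrogenase close to the retinoic acid enzymes, gave -2.06 ± 0.28, and Igsf1, an immunoglobulin-domain membrane protein, -2.05 ± 0.35. Btbd17, a secreted protein enriched in astrocytes, gave -1.85 ± 0.19, Gpr61, an orphan receptor, -1.85 ± 0.27, Plekhd1 -2.39 ± 0.32 and Gm32633 -1.99 ± 0.31. Mvd, an enzyme of cholesterol synthesis, completes the 12 with a value given below. Each of these genes fell in all 6 R6/2 samples relative to all 5 WT samples. All R6/2 values of Gpr61 (3.89 to 5.22) and the R6/2 mean of Gm32633 (4.85) lay below the dim level of 5.52. Their differences are therefore taken against a dim signal as well.

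**Figure D3:**
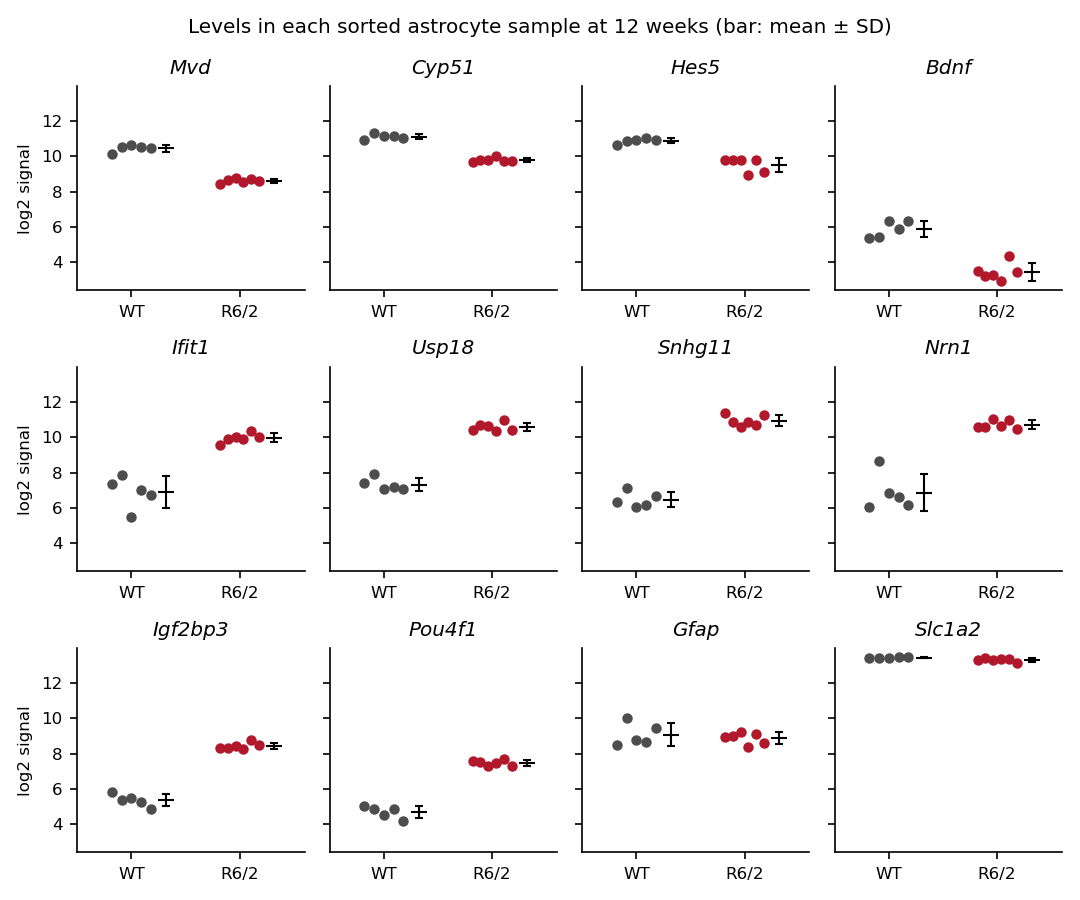
Log2 signal (y axis) of 12 genes in each of the 5 WT and 6 R6/2 astrocyte samples at 12 weeks, with points as samples and bars as group mean ± SD. The genotypes do not overlap for 10 of the genes, while Gfap overlaps widely and Slc1a2 differs little.

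Every cholesterol synthesis enzyme tested was lower in R6/2 astrocytes. Of 17 members tested none rose and 17 fell, where 14.2% of all genes tested fell. The median log2 difference was -0.96 against 9.26e-05 for all genes tested. For 15 of the 17 the samples did not overlap, against 6.86% of all genes tested with R6/2 below WT and 7.13% above. The mean level of the 17 genes was 11.07 ± 0.09 (SD, n = 5) in WT and 10.15 ± 0.11 (SD, n = 6) in R6/2. On separate probe sets 32 of 34 fell and none rose. Oligodendrocytes also make cholesterol, and their markers in this fraction were lower in R6/2 by the values given above. With the oligodendrocyte marker mean as a covariate 15 of the 17 stayed lower, Ebp (adjusted p = 0.533) and Pmvk (adjusted p = 0.096) being the exceptions.

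The fall ran the length of the pathway. Hmgcs1, which makes HMG-CoA at the entry, read 13.18, 13.23, 13.32, 13.29 and 13.28 in WT and 12.92, 12.97 and 12.997 in R6/2, a difference of -0.29 ± 0.05 (SE, adjusted p = 0.000114). This was its brightest probe set, near the top of the array's range (14.26), and its 5 probe sets ranged from -1.24 to -0.29. In the mevalonate and isoprenoid steps Mvk, mevalonate kinase, gave -0.98 ± 0.11 and Pmvk, the next kinase, -0.35 ± 0.10. Mvd, which makes isopentenyl diphosphate, read 10.11, 10.52, 10.66, 10.50 and 10.48 in WT and 8.46, 8.63 and 8.79 in R6/2. With a difference of -1.83 ± 0.14 (SE, adjusted p = 2.63e-08), or 3.56-fold, it was the largest fall of the list. Idi1, which isomerises that product, read 11.62, 11.72, 11.83, 11.97 and 11.64 in WT and 10.06, 10.33 and 10.46 in R6/2, a difference of -1.45 ± 0.11 (SE, adjusted p = 2.63e-08), and Fdps, the farnesyl diphosphate synthase, gave -1.08 ± 0.15.

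At the branch to sterols Fdft1, squalene synthase, gave -1.20 ± 0.12, Sqle, the rate-limiting squalene epoxidase, -0.999 ± 0.12, and Lss, which closes the ring to lanosterol, -0.65 ± 0.12. Cyp51, which demethylates lanosterol, read 10.90, 11.34, 11.15, 11.17 and 11.02 in WT and 9.66, 9.75 and 10.03 in R6/2, a difference of -1.33 ± 0.09 (SE, adjusted p = 5.89e-09). The highest R6/2 sample lay well below the lowest WT sample. The other enzymes after lanosterol also fell: Msmo1 gave -1.21 ± 0.09, Tm7sf2 -0.96 ± 0.13, Nsdhl -0.89 ± 0.09, Sc5d -0.82 ± 0.11, Dhcr7 -0.62 ± 0.08 and Ebp -0.59 ± 0.16. Hsd17b7 gave -0.32 ± 0.10 (SE, adjusted p = 0.0249), overlapped between genotypes, and was not called without R6/2 11, WT 12, WT 16 or R6/2 21 (adjusted p = 0.0503 to 0.0793).

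**Figure D4:**
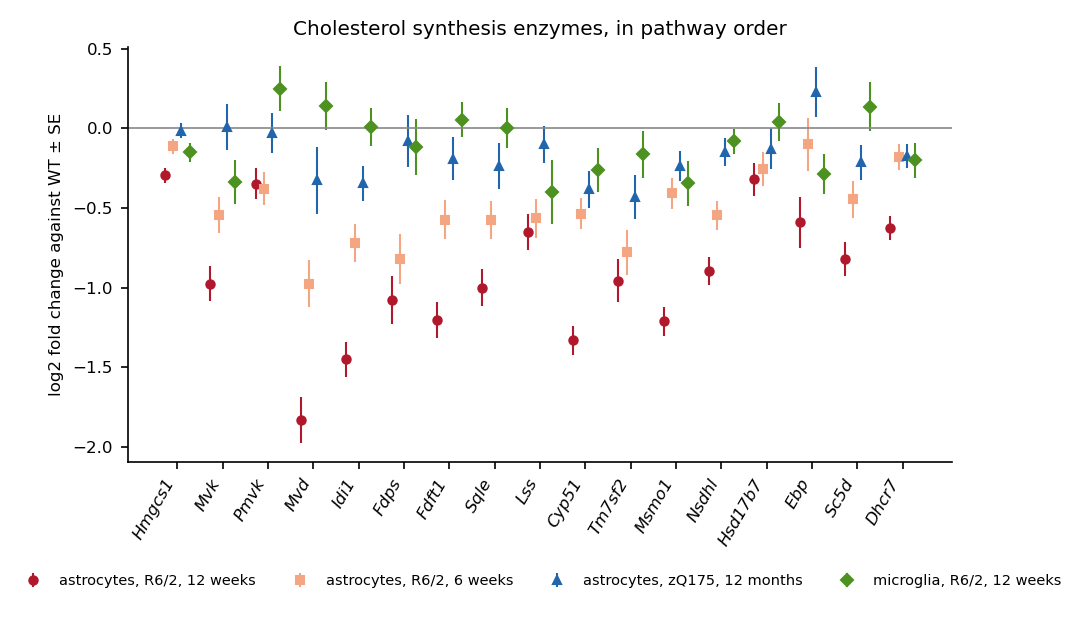
Log2 fold change against WT ± SE (y axis) of the 17 cholesterol synthesis genes in pathway order (x axis), for R6/2 astrocytes at 12 and 6 weeks, zQ175 astrocytes at 12 months and R6/2 microglia at 12 weeks. The 12-week astrocyte values run from -1.83 for Mvd to -0.29 for Hmgcs1.

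Genes that control or use sterols moved less. Of 13 genes of sterol regulation and uptake 5 fell and 1 rose, with a median of -0.14, where 28.7% of all genes tested were called. Stard4, a carrier that moves cholesterol between membranes, changed by -0.85 ± 0.16, Insig1, which holds SREBP in the endoplasmic reticulum and is itself an SREBP target, by -0.41 ± 0.06, and Srebf2, which encodes SREBP2, by -0.27 ± 0.07. Lrp8 gave -0.54 ± 0.13 and Vldlr, like Lrp8 a receptor for apolipoprotein E, -0.32 ± 0.11, the latter not called without R6/2 11, WT 12, WT 16, R6/2 19 or WT 20 (adjusted p = 0.0518 to 0.0832). Mbtps1, the protease that releases SREBP, rose by 0.29 ± 0.08 on its brightest probe set, but the mean of its probe sets turned to -0.20. Among 11 efflux and LXR target genes 3 fell and 3 rose, set against the same share. Lcat, which esterifies cholesterol on lipoproteins, changed by -1.27 ± 0.12, and Abca1, the exporter of cholesterol to lipoproteins, rose by 0.43 ± 0.09. The other 4 calls, Abcg4 and Cyp46a1 lower and Nceh1 and Apod higher, each depended on single libraries. Abcg4 was not called without R6/2 11, WT 14, R6/2 15, WT 16, R6/2 17, WT 18, WT 20 or R6/2 21 (adjusted p = 0.0565 to 0.0791), Cyp46a1 without R6/2 11, WT 14, WT 18 or WT 20 (adjusted p = 0.0546 to 0.0751), Nceh1 without R6/2 11, WT 16 or WT 20 (adjusted p = 0.0504 to 0.066) and Apod without R6/2 11, R6/2 13, WT 14, WT 16, R6/2 17, WT 18 or WT 20 (adjusted p = 0.0537 to 0.0857). Apoe, the main lipoprotein of astrocytes, read -0.14 ± 0.08 (adjusted p = 0.179).

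Of 16 fatty acid synthesis genes 7 fell and none rose, with a median of -0.18, where 14.2% of all genes tested fell. The 7 included Elovl6, an elongase of long-chain fatty acids (-0.73 ± 0.09), Elovl7 (-0.63 ± 0.14), the mitochondrial citrate carrier Slc25a1 (-0.61 ± 0.10), the desaturase Fads1 (-0.53 ± 0.08), the acetyl-CoA synthetase Acss2 (-0.52 ± 0.11) and the fatty acid synthase Fasn (-0.47 ± 0.08). Of 8 genes for myelin lipids 3 fell, Fa2h by -0.88 ± 0.12, Gal3st1 by -0.84 ± 0.18 and Ugt8a by -0.65 ± 0.11. Fa2h and Ugt8a are also on the oligodendrocyte list, whose mean was lower in R6/2. With the oligodendrocyte mean as a covariate Gal3st1 and Elovl7 were no longer called. Of 10 genes of fatty acid oxidation none was called in either direction in limma, and 0 had an unadjusted p below 0.05.

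Interferon-stimulated genes rose together. Of 39 tested 33 rose and none fell, where 14.5% of all genes tested rose, and the median log2 difference was 1.07. For 26 the samples did not overlap, against 7.13% of all genes tested with R6/2 above WT and 6.86% below. With the oligodendrocyte marker mean as a covariate 26 of the 39 rose. Their mean level was 7.92 ± 0.28 (SD, n = 5) in WT and 9.10 ± 0.34 (SD, n = 6) in R6/2. Usp18, a protease that removes ISG15 and dampens interferon signalling, read 7.41, 7.92, 7.08, 7.17 and 7.05 in WT and 10.36, 10.53 and 10.99 in R6/2, a difference of 3.25 ± 0.17 (SE, adjusted p = 2.05e-10). The lowest R6/2 sample lay far above the highest WT sample. Oasl2, of the 2'-5'-oligoadenylate synthetase family of sensors of double-stranded RNA, read 6.25, 6.81, 5.15, 6.22 and 5.50 in WT and 8.28, 9.18 and 9.94 in R6/2, a difference of 3.14 ± 0.30 (SE, adjusted p = 3.91e-07). Ifit1, which binds foreign RNA caps, read 7.35, 7.86, 5.48, 7.05 and 6.74 in WT and 9.57, 9.97 and 10.37 in R6/2, a difference of 3.07 ± 0.33 (SE, adjusted p = 1.78e-06), with the R6/2 samples close together and the WT samples spread. Irf7, the transcription factor that amplifies type I interferon, read 5.73, 6.71, 5.48, 6.13 and 5.70 in WT and 7.40, 7.93 and 9.11 in R6/2, a difference of 2.19 ± 0.28 (SE, adjusted p = 1.13e-05).

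By role, 3 of 4 signalling transcription factors tested rose, among them Irf9, a DNA-binding factor of interferon signalling, by 1.44 ± 0.17, and 4 of 4 nucleic acid sensors, among them Ifih1 (MDA5) by 1.41 ± 0.22 and Ddx58 (RIG-I) by 1.21 ± 0.19. Of 20 effectors 18 rose, with Ifi27l2a at 2.99 ± 0.27, Rtp4 at 2.28 ± 0.17, Mx2 at 1.66 ± 0.14 and Bst2, the tetherin that holds budding virus, at 1.46 ± 0.19. The interferon-inducible GTPases rose in 7 of 8, Iigp1 by 1.29 ± 0.28, Gbp3 by 1.19 ± 0.27 and Igtp by 1.12 ± 0.13. Ifit2 gave 0.44 ± 0.14 and was not called without WT 14 or R6/2 15 (adjusted p = 0.0512 to 0.0859), and Gbp2, at 0.91 ± 0.30, was not called without WT 16, WT 18, R6/2 19, WT 20 or R6/2 21 (adjusted p = 0.0628 to 0.0708). Of 11 class I antigen presentation genes 5 rose, where 14.5% of all genes tested rose. The transactivator Nlrc5 rose by 2.05 ± 0.39, the immunoproteasome subunit Psmb8 by 1.24 ± 0.25, B2m by 0.44 ± 0.08 and Tapbp by 0.41 ± 0.05. Tap1 rose by 0.50 ± 0.17 and was not called without WT 12, R6/2 15, WT 18 or R6/2 19 (adjusted p = 0.0516 to 0.0895). Among 8 interferon ligands and receptors 3 fell and none rose, where 14.2% of all genes tested fell. Ifnar1 and Ifngr2, subunits of the type I and type II receptors, gave -0.56 ± 0.10 and -0.51 ± 0.15. The kinase Jak1 gave -0.26 ± 0.08 and was not called without WT 18 (adjusted p = 0.0616). As the mean of its probe sets Ifnar1 gave -0.15 and was not called (adjusted p = 0.368), nor was Tapbp (0.17, adjusted p = 0.111).

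The promoters of the interferon-stimulated genes were read for the core of the interferon-stimulated response element (ISRE), the letters GAAANNGAAA on either strand, in the 250 bases before the RefSeq start (assembly GRCm38.p6). Of 31 tested members with a promoter sequence 12 held it (38.7%), against 286 of 9889 tested genes (2.89%). All 12 rose, with a median log2 difference of 0.92, and of the 19 members without it 13 rose, with a median of 0.73. A match is a description of the letters and not of binding. The windows of 5 members that rose are shown because they carry the shared element, each 5' to 3' on the strand of its gene with the motif in capitals, which reads TTTCNNTTTC where it lies on the opposite strand.
Ifit1, chr19:34640779-34640838 (+): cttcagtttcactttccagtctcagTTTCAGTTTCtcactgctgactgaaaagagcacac
Gbp3, chr3:142559974-142560033 (+): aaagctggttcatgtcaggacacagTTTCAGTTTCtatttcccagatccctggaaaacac
Rsad2, chr12:26456538-26456597 (-): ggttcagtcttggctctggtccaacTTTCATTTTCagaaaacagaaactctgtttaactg
Igtp, chr11:58199497-58199555 (+): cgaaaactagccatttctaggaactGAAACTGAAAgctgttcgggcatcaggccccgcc
Bst2, chr8:71537562-71537621 (-): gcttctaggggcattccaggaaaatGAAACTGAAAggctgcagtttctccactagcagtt
For the cholesterol genes the sterol response element core CACNCCAC was found in 1 of 14 members (7.14%), Hmgcs1, against 665 of 9889 tested genes (6.72%).

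In R6/2 microglia at 12 weeks, where 1.90% of 12322 genes rose, 32 of 43 interferon-stimulated genes tested rose as well. The size of the effect differed between the cell types for 14 of these 43 genes in a fit with both fractions: it was larger in astrocytes for 3 (against 4.82% of all genes) and larger in microglia for 11 (3.18%). Ifit2 rose by 0.44 ± 0.14 in astrocytes and by 3.09 ± 0.14 in microglia, and the difference between these effects was -2.65 ± 0.19 (SE, adjusted p = 4.72e-08). Ifit3 rose by 0.91 ± 0.14 and 2.97 ± 0.14, with a difference of -2.07 ± 0.20 (SE, adjusted p = 1.63e-06). Usp18 gave 3.25 ± 0.17 in astrocytes and 3.10 ± 0.15 in microglia, with a difference of 0.16 ± 0.22 (SE, adjusted p = 0.724).

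**Figure D5:**
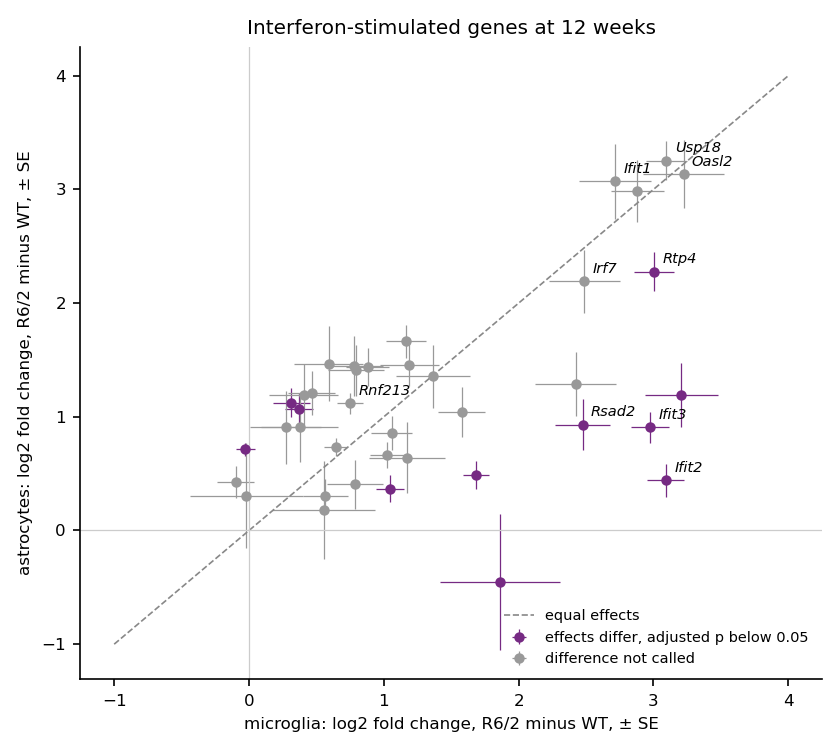
Log2 fold change, R6/2 minus WT, ± SE of each interferon-stimulated gene in microglia (x axis) and astrocytes (y axis) at 12 weeks, with genes whose effects differ at an adjusted p below 0.05 in purple and a dashed line of equal effects. Ifit2 and Ifit3 lie below the line, at 3.09 and 2.97 in microglia and 0.44 and 0.91 in astrocytes.

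Genes for glutamate and GABA handling were called lower more often than higher. Of 15 tested 6 fell, 1 rose and 8 were not called, where 14.2% of all genes tested fell and 14.5% rose. The median was -0.24. Slc1a2, which encodes GLT1, the protein used for the sort, read 13.44, 13.41, 13.41, 13.45 and 13.45 in WT and 13.13, 13.32 and 13.41 in R6/2, a difference of -0.13 ± 0.06 (SE, adjusted p = 0.0989). The R6/2 values lay at or below the WT values, both near the top of the array's range, and of its 5 probe sets 3 fell, down to -1.20 for the dimmest. Slc1a2 was called lower with the mean of its probe sets (-0.68, adjusted p = 0.00465), with the oligodendrocyte marker mean as a covariate (-0.21, adjusted p = 0.0194) and with an intensity trend and robust prior in limma (-0.13, adjusted p = 0.0348). Glul, glutamine synthetase, gave -0.08 ± 0.05 (adjusted p = 0.248), with 1 of 2 probe sets lower, and -0.32 (adjusted p = 0.000293) as the mean of both. Slc38a3, which exports glutamine, changed by -0.68 ± 0.10, Slc7a10, a serine and glycine transporter, by -0.37 ± 0.07 and Slc6a9, the glycine transporter, by -0.18 ± 0.05. Slc6a11, the GABA transporter GAT-3, gave -0.43 ± 0.13 on its brightest probe set and +0.09 as the mean of its probe sets. The calls of Glud1 and Abat depended on single libraries: Glud1, at -0.26 ± 0.08, was lost without R6/2 11 or WT 20 (adjusted p = 0.0598 to 0.0633), and Abat, at -0.24 ± 0.08, without R6/2 11, WT 14, WT 16 or R6/2 21 (adjusted p = 0.0514 to 0.0577). Got1, an aspartate aminotransferase, rose by 0.44 ± 0.11.

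Of 10 receptors typical of astrocytes 6 fell and none rose, where 14.2% of all genes tested fell. Grm3, the metabotropic glutamate receptor of adult astrocytes, read 12.41, 12.11, 12.85, 12.53 and 12.76 in WT and 11.24, 11.56 and 11.93 in R6/2, without overlap, a difference of -0.98 ± 0.14 (SE, adjusted p = 5.78e-05). S1pr1, a receptor for sphingosine 1-phosphate, gave -0.69 ± 0.10, and Gpr37l1, an orphan receptor, -0.39 ± 0.08. Ednrb, Gabbr1 and Ntsr2 fell by less: -0.24 ± 0.08, -0.17 ± 0.06 and -0.16 ± 0.06. Ednrb was not called without R6/2 11, WT 12, WT 18 or R6/2 21 (adjusted p = 0.061 to 0.0703), Gabbr1 without WT 12, R6/2 13, WT 18, WT 20 or R6/2 21 (adjusted p = 0.0504 to 0.0867) and Ntsr2 without R6/2 11, WT 12, WT 14, R6/2 15, WT 16, R6/2 17, WT 18, WT 20 or R6/2 21 (adjusted p = 0.0633 to 0.114).

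Of 15 genes for potassium, water and gap junctions 6 fell and none rose, where 14.2% of all genes tested fell. Kcnk13 led them with the values above, and WT microglia express it too, at 9.63 ± 0.26 (SD, n = 5). Kcnj10, which encodes the Kir4.1 channel that carries most astrocyte potassium current, gave -0.26 ± 0.07 (SE, adjusted p = 0.0143), and 1 R6/2 sample lay within the WT range. Fxyd1, phospholemman, changed by -0.40 ± 0.09. Kcnj16, the partner of Kir4.1, gave -0.55 ± 0.19, not called without R6/2 11, WT 12, WT 14, R6/2 17 or R6/2 21 (adjusted p = 0.0693 to 0.112), and Clcn2, a chloride channel, -0.31 ± 0.10, not called without R6/2 11, WT 14, WT 16, R6/2 19 or WT 20 (adjusted p = 0.051 to 0.0824). Aqp4, the water channel of endfeet, gave -0.20 ± 0.07 on its brightest probe set, not called without R6/2 11, WT 12, R6/2 17, WT 18, WT 20 or R6/2 21 (adjusted p = 0.0513 to 0.107), while 2 of its 3 probe sets fell, down to -0.96. Of 12 calcium signalling genes 2 rose and 3 fell, Plcb1 by -0.53 ± 0.13.

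Classical signs of reactive gliosis were mixed. Gfap, the intermediate filament used as the hallmark of reactive astrocytes, read 8.50, 10.02, 8.77, 8.65 and 9.45 in WT and 8.38, 8.97 and 9.24 in R6/2, with the WT samples spread around the R6/2 samples, and the difference was -0.20 ± 0.36 (SE, adjusted p = 0.718). Vim, a filament of the same network, read 11.71, 12.12, 11.44, 11.86 and 11.88 in WT and 12.44, 12.56 and 12.86 in R6/2, a rise of 0.83 ± 0.12 (SE, adjusted p = 5.72e-05) without overlap. Of 20 reactive astrocyte genes tested 5 rose and 2 fell, with a median of 0.08, where 28.7% of all genes tested were called. Besides Cd109 and Vim, 3 interferon-inducible genes rose: the chemokine Cxcl10 by 1.58 ± 0.33, Psmb8 by 1.24 ± 0.25 and Gbp2 by 0.91 ± 0.30, not called without WT 16, WT 18, R6/2 19, WT 20 or R6/2 21 (adjusted p = 0.0628 to 0.0708). Cd44, a hyaluronan receptor, changed by -0.78 ± 0.20, and Aspg, an asparaginase, by -0.68 ± 0.23, not called without R6/2 11, WT 12, WT 14, R6/2 19, WT 20 or R6/2 21 (adjusted p = 0.0507 to 0.0797).

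Among 15 synaptogenic and phagocytic genes 2 rose and 4 fell, where 28.7% of all genes tested were called. Thbs2, a thrombospondin that astrocytes secrete to induce synapses, read 8.51, 8.37, 7.79, 7.52 and 7.87 in WT and 9.67, 10.32 and 10.57 in R6/2, a rise of 2.24 ± 0.25 (SE, adjusted p = 2.57e-06) without overlap. Chrdl1, which astrocytes secrete to mature synapses, changed by -0.83 ± 0.21, the proteoglycan Ncan by -0.65 ± 0.09, Gpc6, a glypican that recruits glutamate receptors, by -0.49 ± 0.13, and Axl, a receptor for dying cells, by -0.66 ± 0.12. Abca1, on this list as well, rose by the value given with the efflux genes.

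Of 25 growth factors and receptors tested 10 fell, 2 rose and 13 were not called, where 14.2% of all genes tested fell and 14.5% rose. Vegfa, the vascular growth factor, read 10.71, 10.73, 10.79, 11.16 and 10.78 in WT and 9.55, 10.02 and 10.31 in R6/2, a change of -0.83 ± 0.12 (SE, adjusted p = 3.2e-05) without overlap. Besides Bdnf, the ligands Lif (-1.13 ± 0.28), Il33 (-0.89 ± 0.09) and Hbegf (-0.69 ± 0.10) fell. The receptors Ngfr (-1.16 ± 0.17) and Erbb3 (-0.69 ± 0.17) fell as well, and Pdgfrb gave -0.37 ± 0.13, not called without R6/2 11, WT 14, R6/2 15, WT 16, WT 18, R6/2 19 or WT 20 (adjusted p = 0.053 to 0.0883). Pdgfra, a receptor that marks oligodendrocyte precursors, read 6.27, 6.13, 5.76, 5.64 and 6.14 in WT and 7.08, 7.82 and 8.32 in R6/2, a rise of 1.78 ± 0.30 (SE, adjusted p = 0.000185). The precursor Lhfpl3 rose by 1.25 ± 0.24 and Cspg4 gave -0.64 ± 0.18, so the precursor markers moved in both directions. Igf2, a fetal growth factor, rose by 1.68 ± 0.26, and WT negative cells express it at 11.68 ± 0.11 (SD, n = 5).

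Several targets of Notch and BMP signalling and some genes of the Wnt pathway fell. Of 12 Notch pathway genes 4 fell and 1 rose, where 28.7% of all genes tested were called. Hes5, a direct Notch target, read 10.64, 10.88, 10.94, 11.02 and 10.90 in WT and 8.93, 9.77 and 9.79 in R6/2, a change of -1.36 ± 0.17 (SE, adjusted p = 1.49e-05) without overlap, and Hey1, another target, gave -0.85 ± 0.11. Notch3 and Nrarp changed by -0.41 ± 0.12 and -0.35 ± 0.09, and the ligand Dll1 rose by 0.60 ± 0.20 but was not called without R6/2 11, WT 12, WT 14, R6/2 15 or R6/2 21 (adjusted p = 0.0524 to 0.092). Of 20 TGF-beta and BMP pathway genes 5 fell and 3 rose, set against the same 28.7% of all genes tested. The BMP targets Id1, Id2 and Id3 gave -1.01 ± 0.18, -0.85 ± 0.16 and -0.81 ± 0.13, the ligand Bmp6 -1.25 ± 0.22 and the inhibitory Smad7 -0.62 ± 0.14. Smad1 and Smad4 rose by 0.32 ± 0.08 and 0.27 ± 0.06, and the receptor Bmpr2 gave 0.21 ± 0.07, not called without WT 16, R6/2 19 or WT 20 (adjusted p = 0.0582 to 0.0866). Of 22 Wnt pathway genes 6 fell, among them Sfrp5 (-1.03 ± 0.26), Fzd9 (-0.96 ± 0.15), Wnt7b (-0.91 ± 0.15) and Wnt7a (-0.91 ± 0.15), and 2 rose, Wnt5a by 0.79 ± 0.22 and Axin1 by 0.38 ± 0.12, the latter not called without WT 12, WT 16, WT 18, R6/2 19 or R6/2 21 (adjusted p = 0.0501 to 0.0834). The share of Wnt pathway genes called in either direction was not far from the 28.7% of all genes tested. Of 8 sonic hedgehog targets none was called in limma, and 1 had an unadjusted p below 0.05.

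Of 18 clock genes 7 fell and 2 rose, where 28.7% of all genes tested were called. Nr1d1, which encodes the repressor REV-ERB alpha, read 10.79, 11.18, 11.10, 10.94 and 11.08 in WT and 9.53, 9.98 and 10.21 in R6/2, a change of -1.08 ± 0.13 (SE, adjusted p = 7.85e-06). Rora changed by -0.95 ± 0.16, the output factors Dbp and Hlf by -0.76 ± 0.13 and -0.63 ± 0.13, Arntl, which encodes BMAL1, by -0.61 ± 0.11, and Bhlhe40 by -0.54 ± 0.11. As the mean of its probe sets Arntl gave -0.14 and was not called (adjusted p = 0.485), and Rora gave -0.40. Per2 and Cry1, repressors of the loop, rose by 0.41 ± 0.14 and 0.25 ± 0.08, Per2 not called without R6/2 11, WT 12, R6/2 13, WT 14, R6/2 19 or WT 20 (adjusted p = 0.0592 to 0.0771) and Cry1 without WT 12 (adjusted p = 0.0522). The labels give no time of day, so an effect of collection time and of genotype cannot be told apart here. Of 18 glucocorticoid-responsive genes 4 rose and 1 fell, a share close to that of all genes tested. Fkbp5, a brake on the glucocorticoid receptor, read 6.28, 7.35, 5.94, 6.16 and 6.27 in WT and 7.37, 8.10 and 8.78 in R6/2, a rise of 1.71 ± 0.25 (SE, adjusted p = 4.21e-05) without overlap. Cdkn1a, Arrdc2 and Zbtb16 rose by 1.71 ± 0.33, 0.89 ± 0.15 and 0.86 ± 0.12, and Hsd11b1, which regenerates active glucocorticoid, changed by -0.92 ± 0.16.

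In the unfolded protein response and ATF4 targets 8 of 28 genes fell and 1 rose, a share close to the 28.7% called among all genes tested. Nupr1, a stress-induced nuclear protein, read 11.65, 11.90, 12.16, 12.04 and 11.91 in WT and 9.36, 10.18 and 10.50 in R6/2, a change of -1.83 ± 0.19 (SE, adjusted p = 1.12e-06). Sdf2l1, an endoplasmic reticulum chaperone partner, changed by -1.73 ± 0.16, and Asns, asparagine synthetase, rose by 1.37 ± 0.19, both without overlap. Hspa5, the main chaperone of the compartment, gave 0.07 ± 0.09 (adjusted p = 0.598) and Atf4 -0.08 ± 0.05 (adjusted p = 0.276). Of 12 p53 targets 4 rose and 1 fell, where 28.7% of all genes tested were called. Eda2r, a death-domain receptor, rose by 2.21 ± 0.34, Cdkn1a, the p21 cell-cycle inhibitor, by the value above and Gadd45a by 1.02 ± 0.19. Of 10 proliferation genes 3 rose and none fell, again close to that share, Mcm5, a replication helicase subunit, by 1.35 ± 0.16. Heat shock (3 higher and 2 lower of 16), immediate early (2 higher and 3 lower of 18), NRF2 (3 higher of 18) and lysosome and autophagy genes (1 higher and 2 lower of 23) were called at shares near or below the 28.7% of all genes tested.

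Among Polycomb subunits and the developmental genes that Polycomb is known to silence, a few genes with low WT signal rose. Pcgf2, a PRC1 subunit, read 4.85, 5.16, 4.68, 4.76 and 5.45 in WT and 6.19, 6.37 and 6.54 in R6/2, a rise of 1.40 ± 0.13 (SE, adjusted p = 1.99e-07) without overlap. Of 21 subunits 6 rose and 1 fell, where 28.7% of all genes tested were called. Without the filter on dim genes 3 rose and 1 fell. Bmi1 rose by 0.49 ± 0.08 and Ring1 changed by -0.46 ± 0.09. Of 34 developmental regulators on the array only 11 were bright enough to be tested, and 4 of these rose and 2 fell. Pou4f1, a homeodomain factor of sensory neurons, read 5.02, 4.85, 4.54, 4.85 and 4.19 in WT and 7.28, 7.50 and 7.69 in R6/2, a rise of 2.79 ± 0.19 (SE, adjusted p = 5.89e-09). Onecut2 read 5.68, 4.98, 5.84, 4.999 and 4.19 in WT and 6.90, 7.72 and 8.32 in R6/2, a rise of 2.48 ± 0.38 (SE, adjusted p = 8.53e-05). The WT values of both lay near or below the dim level of 5.52, and 3 of the 4 genes that rose had a WT mean below it. Such genes entered the test through the R6/2 or 6-week samples, so their count supports nothing. Nkx6-2, a factor of oligodendrocytes, changed by -0.94 ± 0.18. Without the filter, 5 of 34 rose and 2 fell.

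Few genes of energy metabolism were called outside glycogen. Of 20 genes of the TCA cycle none was called in limma, and 3 had an unadjusted p below 0.05. Of 22 glycolysis genes 2 rose and 2 fell, Pdk1 by 0.50 ± 0.09 and Pkm by 0.38 ± 0.05 upward, Ldha by -0.53 ± 0.14 and Pfkp by -0.44 ± 0.10 downward. Of 9 glycogen genes 5 fell and none rose, with a median of -0.26, where 14.2% of all genes tested fell. Ppp1r3g and Ppp1r3c, which target phosphatase to glycogen and so favour its storage, gave -0.88 ± 0.19 and -0.74 ± 0.14, and Ugp2, which makes UDP-glucose, -0.26 ± 0.07. Gys1, glycogen synthase, gave -0.52 ± 0.17, not called without R6/2 11, WT 16 or WT 20 (adjusted p = 0.067 to 0.0794), and Pygm, glycogen phosphorylase, -0.51 ± 0.17, not called without R6/2 11, WT 12, WT 14, R6/2 17, WT 20 or R6/2 21 (adjusted p = 0.0532 to 0.111). Of 11 iron and copper genes 4 fell, set against the same 14.2%. They were Tfrc, the transferrin receptor (-0.48 ± 0.11), Mt3, a brain metallothionein (-0.47 ± 0.10), Slc11a2 (-0.44 ± 0.10) and Aco1 (-0.32 ± 0.08).

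Genes typical of neurons split in both directions. Of 19 tested 6 rose and 2 fell, with a median of -0.01, where 28.7% of all genes tested were called. Uchl1, a ubiquitin hydrolase abundant in neurons, read 8.83, 9.03, 8.81, 8.59 and 8.84 in WT and 10.86, 11.61 and 11.67 in R6/2, a rise of 2.65 ± 0.18 (SE, adjusted p = 2.98e-09) without overlap. Gng3, a G-protein subunit, rose by 2.52 ± 0.15, Tubb3, a neuronal tubulin, by 1.09 ± 0.34, and Syn1, which coats synaptic vesicles, by 0.63 ± 0.18. Snap25 and Syt1, synaptic genes among the most abundant in neurons, gave -0.34 ± 0.23 (adjusted p = 0.296) and -0.09 ± 0.16 (adjusted p = 0.72). Scg2 and Thy1 changed by -1.76 ± 0.39 and -1.40 ± 0.15. Of 15 genes of striatal projection neurons 4 fell and 1 rose, Scn4b by -1.31 ± 0.35 and Ppp1r1b, which encodes DARPP-32, by -1.28 ± 0.16, Cnr1 by -0.89 ± 0.26, and Foxp1 rose by 0.42 ± 0.12 (0.26 as the mean of its probe sets, adjusted p = 0.109). Adcy5 gave -0.53 ± 0.17, was not called without WT 12, WT 16, WT 18 or R6/2 19 (adjusted p = 0.0536 to 0.0664), and read +0.05 with the oligodendrocyte mean as a covariate. The share of striatal projection neuron genes called in either direction was near the 28.7% of all genes tested. The pan-neuronal marker means of both genotypes are given above and were close.

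Far fewer genes were called at 6 weeks than at 12 weeks. Counts past a threshold do not compare effect sizes, and the test of the difference between ages called few genes. In the same fit 101 genes were higher (0.827%) and 45 lower (0.369%) in R6/2 at 6 weeks. The difference between the 12- and 6-week effects was called upward for 90 genes (0.737%) and downward for 51 (0.418%), and the total of 141 fell by more than 1.5 times without WT 6-week sample 2 (60), 4 (68) or 5 (65), R6/2 6-week sample 6 (64), 7 (82), 9 (83) or 10 (53), or WT 12-week sample 16 (76), 18 (83) or 20 (89). Cholesterol synthesis was already lower at 6 weeks, with 11 of 17 members called and a median of -0.54, and the fall grew for 4 members, Cyp51, Msmo1, Mvd and Idi1. Cyp51 gave -0.54 ± 0.10 at 6 weeks, and the 12-week effect minus the 6-week effect was -0.79 ± 0.13 (SE, adjusted p = 0.00768). Msmo1 gave -0.41 ± 0.10, with a difference of -0.80 ± 0.14 (SE, adjusted p = 0.00768). Of the interferon-stimulated genes 10 of 39 rose at 6 weeks, and the 12-week effect was higher than the 6-week effect for 5, Irf7, Ifi27l2a, Mx2, Rtp4 and Rnf213, of which Rtp4 was called at 6 weeks. Among single genes the smallest p-values upward were those of Kazald1 (difference 3.03 ± 0.21), Gng3 (1.99 ± 0.21), Fxyd6 (2.98 ± 0.33), Enkur (1.95 ± 0.26), Il17b (1.67 ± 0.23) and Snhg11 (2.66 ± 0.37). Downward they were Fam20c (-0.91 ± 0.15), Rtn2 (-1.25 ± 0.21), Cyp51, Msmo1, Kcnk5 (-0.85 ± 0.15) and Stk10 (-0.58 ± 0.10).

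In R6/2 microglia at 12 weeks 345 genes (2.80%) fell beside the 234 that rose. Of the 17 cholesterol synthesis genes none was called there in limma (4 had an unadjusted p below 0.05), with a median of -0.12, and for 11 of the 17 the test of the difference called the astrocyte effect lower than the microglial one. Mvd gave -1.83 ± 0.14 in astrocytes and 0.14 ± 0.15 in microglia, a difference of -1.97 ± 0.22 (SE, adjusted p = 6.33e-06). The difference between cell types was called for 594 genes upward in astrocytes and 392 downward, and with arrays shifted to equal medians for 400 and 534. Those with the smallest p-values upward were Kazald1 (3.21 ± 0.23), Hpgd (3.04 ± 0.23), Igf2bp3 (2.74 ± 0.23), Pou4f1 (2.98 ± 0.25), Polr2a (1.24 ± 0.11) and Mmp2 (2.64 ± 0.25). Downward, besides Ifit2 and Ifit3, they included Axl (-3.06 ± 0.25) and Apoc1 (-3.02 ± 0.29). The clock genes differed too: 6 of 18 were lower in the astrocyte effect and none higher.

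In zQ175 astrocytes at 12 months 623 genes rose (5.08%) and 183 fell (1.49%) of 12270 tested. The R6/2 effect at 12 weeks was above the zQ175 effect for 472 genes (3.85%) and below it for 772 (6.29%). The total of 1244 was 788 without zQ175 sample 31 and 765 without WT sample 34. Model, age and the littermates used differ together here and cannot be told apart. Of the 17 cholesterol synthesis genes 1 fell in zQ175, Cyp51 by -0.38 ± 0.12 (adjusted p = 0.0398), and for 14 the R6/2 effect was lower. Of 40 interferon-stimulated genes 5 rose in zQ175, and for 18 the R6/2 effect was higher. Snhg11 rose in both models: it gave 3.88 ± 0.35 in zQ175, and the difference was 0.59 ± 0.45 (SE, adjusted p = 0.458). Igf2bp3 gave 0.37 ± 0.22 in zQ175 against 3.07 ± 0.20 in R6/2, a difference of 2.70 ± 0.29 (SE, adjusted p = 7.65e-07). The smallest p-values upward also included Kazald1 (2.85 ± 0.27), Gbp6 (2.13 ± 0.27), Cd109 (2.94 ± 0.37), Wnk4 (1.73 ± 0.24) and Usp18 (2.28 ± 0.33). Downward they were Abhd1, which rose by 2.22 ± 0.30 in zQ175 (-3.51 ± 0.39), Gamt (-1.54 ± 0.17), Tll2 (-2.26 ± 0.26), Msmo1 (-0.98 ± 0.12), Dlk2 (-1.39 ± 0.18) and Gm33738 (-2.49 ± 0.32).

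Of the 12-week calls named above, several were lost in fits that took account of the makeup of the pools or of other probe sets. Adding the oligodendrocyte marker mean as a covariate ended, besides Ebp, Pmvk, Gal3st1 and Elovl7, the calls of Kcnj10, Erbb3, Smad7, Slc6a9, Wnt5a, Gbp3 and Abhd1. Leaving out both WT pools with little Y-linked signal, samples 12 and 20, ended the calls of Ebp, Kcnj10, Cnr1, Cspg4, Gpc6, Slc6a9, Slc6a11 and Tubb3. The Y-linked mean as a covariate ended the call of Notch3 as well. The mean of all probe sets of a gene, in place of the brightest, ended those of Lrp8 (-0.27, adjusted p = 0.0882), Aco1 (-0.17, adjusted p = 0.0966) and Wnt5a (0.46) and the others given above. Some calls that it did not end moved in value. Among these were Myt1 (1.48), Igsf1 (-1.28), Fdps (-0.61), Fdft1 (-0.72), Rtp4 (1.48), Ednrb (-0.85) and Wnt7a (-0.33). In each setting some of the genes given above as not called without single libraries were lost as well. The part of cell composition and of the sex of the pools in these genes was not tested beyond these fits.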

How the data were processed

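RNA of sorted striatal cells was measured on Affymetrix Mouse Genome 430 2.0 arrays. The deposited log2 expression values per probe set come, per the submitters' processing notes, from affy and RMA, with limma listed beside them. Software versions and the set of arrays normalized as one are not stated in the labels. RMA compresses differences of very bright and very dim probe sets.

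Of the probe sets, 34958 carried 1 gene symbol in the platform annotation, 932 several and 9211 none, and only the first kind was used. A gene was read by its brightest probe set, by mean over all arrays. Values were used as deposited. Genes whose mean in the fit reached the 40th percentile of probe set means (5.52 log2) entered the test. The 4 astrocyte groups of R6/2 and WT at 6 and 12 weeks shared 1 fit in limma 3.58.1 under R 4.3.3, with lmFit, eBayes and two-sided p-values. Benjamini-Hochberg adjustment covered every gene in the fit. Microglia and zQ175 comparisons came from fits that held both sets of groups. The fits were tested on simulated data. The number of arrays limits the precision.

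Named genes are the 12 largest rises and falls among called genes without overlap, up to 6 called members of each list with its defining members, all cholesterol synthesis enzymes, and up to 6 genes with the smallest p per direction of each difference. The members and lists were chosen with earlier results of these data known. Alternatives changed the filter, the probe set rule, the scaling, the variance model, the covariates and the samples. Promoter windows came from RefSeq (GRCm38.p6), and bases after the start were not used.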

Additional observations from a re-analysis of the deposited data

Results flagged for a closer look

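Among 96 groups of samples of the genes described most closely, 2 held a sample far from the others of its group, where chance gives about 5 in 100. Cd109 read 3.99 in 1 WT sample against 5.01 to 5.40 in the other WT samples, and Rarres1 read 7.18 in 1 WT sample against 7.996 to 8.15 in the others. Both values lay on the WT side of every R6/2 value.

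The test of a difference between effects called 141 genes between 12 and 6 weeks in R6/2 astrocytes. It called 986 genes between astrocytes and microglia at 12 weeks, and 1244 between R6/2 astrocytes at 12 weeks and zQ175 astrocytes at 12 months.

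Outside the compared samples, the astrocyte markers in 12-week negative cells averaged 10.3 in R6/2 and 8.33 in WT mice. The negative fraction is defined by the absence of GLT1 and CD11b at the surface. The part of this signal in the differences within the gate was not tested.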

How the results depend on the processing

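The count of 3507 genes lay between 2736 (only the 11 samples compared) and 3896 (array weights) under the planned settings, and between 2888 and 3493 with 1 library left out. Tested on their own, an alternative chosen after seeing the data, 5749 probe sets were called. Cholesterol synthesis had 15 to 17 lower calls, 16 to 17 with 1 library left out. Interferon-stimulated genes had 26 (oligodendrocyte mean as a covariate) to 35 higher calls, 29 to 35 with 1 library left out. The exception was the 60th percentile filter, which left 21, since only 24 were then tested. With array weights the differences were called for 541 genes between ages, 1532 between cell types and 2236 between models, and a covariate for Y-linked signal left 89 genes for the difference between ages. The cause was not tested. With 1 library left out these counts ran from 53 to 192, from 742 to 1205 and from 765 to 1560. The difference between cell types was 435 higher of 824 with the mean of all probe sets, and 400 higher of 934 with equal medians.

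Of 205 named calls, 32 were lost without both WT pools low in Y-linked signal, 26 with the Y-linked mean, 24 with only the 11 samples, 23 with the oligodendrocyte mean, 17 with the mean of all probe sets, at most 6 under each other planned setting and 28 when some single library was left out. The value moved by over 1.5 times for 31 of the 187 tested with the mean of all probe sets, and for 39 with the oligodendrocyte mean. Reversed values were -0.200 for Mbtps1 and 0.0875 for Slc6a11 with the mean of all probe sets, and 0.0478 for Adcy5 with the oligodendrocyte mean. Sample numbers are shared between fractions: 8 of 11 same-numbered pairs had correlated deviations above 0.1 (0.07 to 0.37), and 7 of 11 correlated best with their own number. With the replicate block the difference between cell types was called for 1321 genes (837 higher). Dim genes had the least signal over background.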
